A study of Graphilbum sp. with 6 samples.

Results

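The 96 features described here are transcripts with ubiquitin and proteasome descriptions, from libraries of hyphae of *Graphilbum* sp., a filamentous fungus. Further features of such descriptions had best hits outside the genera used and are given at the end. They were picked by words in the description of each assembled feature's best database hit: ubiquitin, proteasome, 26S, cullin, F-box, COP9, SUMO, NEDD8 or ring finger, with thioredoxin excluded. Only the 4613 features whose best hit was in *Sporothrix*, *Grosmannia*, *Ophiostoma* or *Esteya*, genera of the order Ophiostomatales, were eligible, out of 26694 features in the table. The 96 came from 90 assembly components, so some may be pieces of 1 locus or near copies and are not independent. Their best hits were in *Sporothrix* for 53, *Grosmannia* for 34 and *Ophiostoma* for 9. A description is the name of the most similar database entry and marks neither the organism nor the function of a transcript.

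RNA was sequenced from 3 control libraries, which the series text calls wild-type, and 3 nematode libraries. For the latter, hyphae were exposed for 24 h to *Bursaphelenchus xylophilus*, the pine wilt nematode, at about 300 worms. This worm causes pine wilt and can feed on fungi. The protocol text, with its 24 h, is the same for both groups, and only titles and a treatment tag separate them. It does not say separately how the controls were kept. All hyphae had grown for 5 days at 28 °C on potato dextrose agar and were rinsed in phosphate buffer. The sources used here name no strain and do not say whether nematodes were taken out before extraction. The replicates are called biological, but what made them separate is not described, so p-values measure the spread between these libraries, which may be technical.

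Ubiquitin is a small protein that cells attach to other proteins through a relay of an activating enzyme (E1), a conjugating enzyme (E2) and a ligase (E3). Chains of it direct a protein to the 26S proteasome, in which a 19S regulatory particle unfolds the protein and feeds it into the 20S proteolytic core, while deubiquitinases take ubiquitin off again. Cullin ligases with F-box substrate adaptors form a large ligase class in fungi; they are switched on by the ubiquitin-like protein NEDD8 and off by the COP9 signalosome.

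Values are rescaled TPM, given in the order of replicates 1, 2 and 3, and where a feature has values joined by "against" the controls come first. TPM is a length-scaled share of transcripts, and each library was divided by 1 factor so that the Ophiostomatales-hit features as a class have the same typical level in every library. That class made up 68.5 to 70.0% of TPM in the control libraries and 28.7 to 39.4% in the nematode libraries. The members' summed TPM as deposited was 10255, 10111 and 10652 in the controls and 4219, 6132 and 5667 with nematodes. In such bulk samples fewer hyphae and less RNA per hypha cannot be told apart, and neither can be told from RNA of another organism sharing the library. Tested on the deposited values, 83 members were lower and 0 higher, beside 78.8% of the class lower and 0.471% higher, and 25.5% of all features lower and 61.4% higher. All changes below are therefore relative to the class. Words for hyphal genes (chitin synthase, glucan synthase, hydrophobin, Woronin body, septin) matched 12 features, of which 6 were in the class and 5 of those had at least 1 TPM in all libraries. Words for nematode genes matched 2 features, neither with a nematode best hit, so these words give no measure of worm RNA in either group. The 2 summed to 11.3, 8.56 and 41.8 TPM as deposited in the controls and 44.1, 33.8 and 38.5 with nematodes. The 1 in the class, a myosin heavy chain, had 11.3, 8.56 and 41.8 against 3.82, 9.47 and 7.56. The other, with a *Gigaspora* best hit, thus had its TPM in the nematode libraries. Read depth is unknown. Control replicate 3 stood apart from the other controls: its median absolute log2 deviation from them was 0.359 over the class, against 0.114 to 0.217 for the other 5 libraries, each set against the rest of its group.

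None of the 96 members passed the test in limma at an adjusted p of 0.05. The count was 0 higher and 0 lower with nematodes, beside 0.613% of the 4568 class features tested called higher and 0.0438% called lower. At an unadjusted p under 0.05 there were 2 members higher and 2 lower, 4.17% of the list, beside 10.8% of the class (7.07% higher and 3.74% lower). The smallest adjusted p among the members was 0.198. The log2 fold changes ran from -0.87 to 0.37 with a median of -0.084, beside a class median of -0.027, and 67 of the 96 (69.8%) lay below 0, beside 55.2% of the class. Of the 96 members, 92 (95.8%) had a log2 fold change between -0.5 and 0.5, beside 91.0% of the class. For 89 (92.7%) the 95% interval lay within a 2-fold change in either direction, beside 85.7% of the class. Small changes were thus common in the class as a whole. A fold change on this scale, log2(rescaled TPM + 1), understates the change of low features. The members' median level was 104 rescaled TPM, above the class median of 72.0, and 93 of them had at least 10 rescaled TPM in every library.

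**Figure D1:**
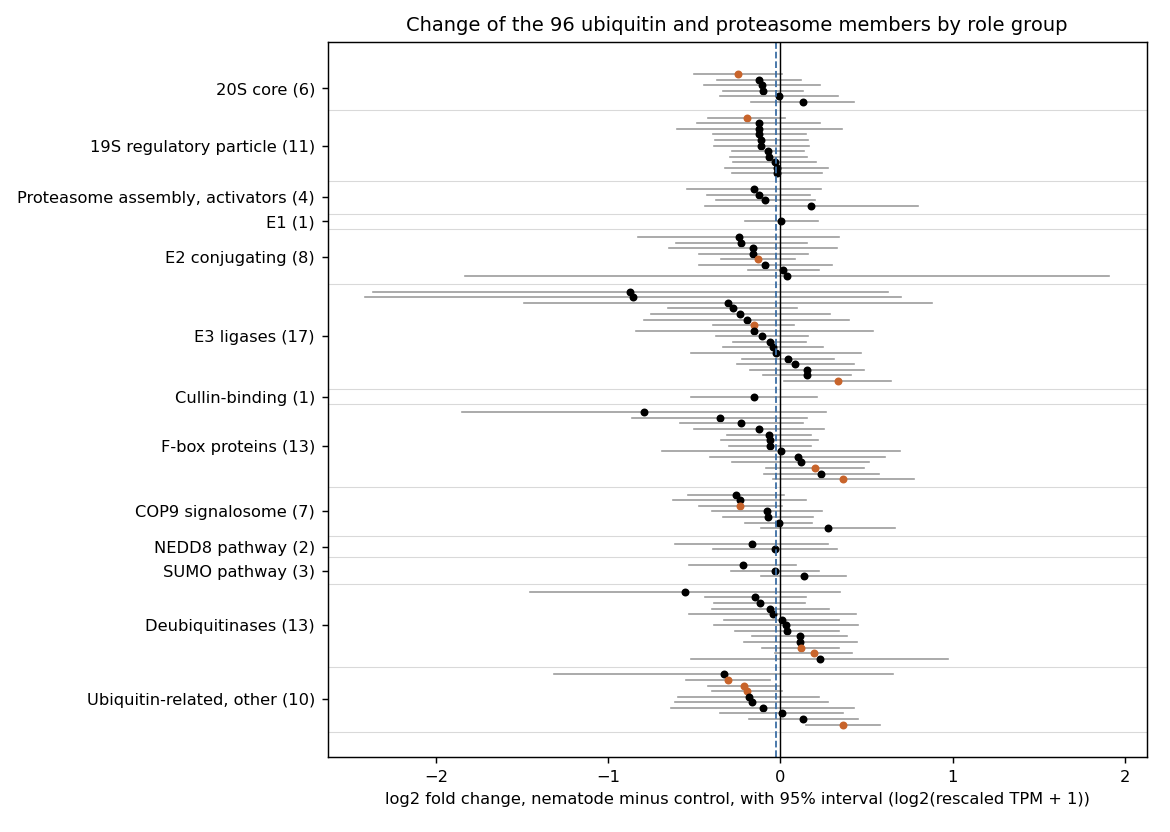
Log2 fold change of each of the 96 members (x axis, nematode minus control on log2(rescaled TPM + 1)) by role group (y axis, number of members in brackets); points are limma estimates, lines their 95% intervals, orange points the 14 members whose libraries do not overlap between groups, and the dashed line the class median of -0.027. Most points lie between -0.5 and 0.5, and the widest intervals belong to E3 ligases, F-box proteins and 1 E2 of low level.

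The 20S core and 19S regulatory particle had 17 features, none of which passed the test. Their log2 fold changes lay in a narrow band from -0.25 to 0.13, with 16 below 0 and 1 above, beside 55.2% of the class below 0. All 17 intervals stayed within a 2-fold change, beside 85.7% of the class. The medians were -0.10 for the 6 core features and -0.11 for the 11 regulatory features. With 1 library left out they ran from -0.047 (without control replicate 2) to -0.17 (without control replicate 3) and from -0.059 to -0.19 (without the same 2). With quantile normalization they were nearer 0, at -0.0032 and -0.018. Summed over the regulatory particle, the level was 3457 ± 221 (SD, n = 3) rescaled TPM in the controls and 3233 ± 83.7 with nematodes. For the core it was 2260 ± 270 and 2128 ± 97.9 (SD, n = 3 each). Both differences in the mean were within or close to the spread of the controls, and the class as a whole summed to 1049290 and 950709 on this scale. Of the 17 features, 12 averaged between 200 and 600 rescaled TPM, and the highest was 27.2-fold above the lowest, ECM29.

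In the core, a proteasome component whose subunit is not named (TRINITY_DN438_c3_g2) was the most abundant member, at 903, 952 and 713 rescaled TPM in the controls and 885, 781 and 876 with nematodes. The groups overlapped, with control replicate 3 the lowest of all 6 libraries. Pre6 (TRINITY_DN1579_c0_g1), an alpha subunit of the core ring, had 515, 524 and 462 in the controls and 474, 463 and 461 with nematodes, and pup2 (TRINITY_DN6995_c0_g1), another alpha subunit, had 533, 541 and 403 against 467, 423 and 473. In both, control replicates 1 and 2 were above every nematode library and control replicate 3 was not. A further proteasome component (TRINITY_DN2055_c0_g1) had 298, 309 and 256 in the controls and 248, 229.8 and 247 with nematodes. Its groups did not overlap, and its log2 fold change of -0.25 ± 0.11 (SE) did not pass the test (adjusted p = 0.483). The 1 feature above 0 was ECM29 (TRINITY_DN3438_c0_g1), an adaptor that binds the assembled proteasome in yeast and was placed with the core by the wording of its description, at 29.1, 27.6 and 32.7 in the controls and 31.5, 36.7 and 30.1 with nematodes.

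Among the regulatory subunits, the ATPase s10b (TRINITY_DN9384_c0_g1) had 502, 533 and 428 rescaled TPM in the controls and 456, 429 and 465 with nematodes, with overlapping groups. A regulatory particle subunit not named further (TRINITY_DN2157_c0_g1) had 487, 479 and 462 against 436, 414 and 397. Its groups were separate, and the change was -0.20 ± 0.094 (log2, SE) with an adjusted p of 0.53. N11 (TRINITY_DN7252_c0_g1), the deubiquitinase of the lid, which cuts ubiquitin from substrates as they enter, had 438, 472 and 369 against 401, 402 and 453. S5a (TRINITY_DN1561_c0_g1), a receptor for ubiquitin chains, had 287, 283 and 239.9 against 264, 251 and 281. In both, the control libraries spanned the nematode range. The ATPase subunit 8 (TRINITY_DN3649_c0_g1) ran from 326 to 374 over the 6 libraries. Rpn7 (TRINITY_DN4691_c1_g1), a scaffold subunit of the lid, ran from 207 to 245. For these 2 and no other regulatory subunit, control replicate 3 was the highest of the controls. N6 (TRINITY_DN385_c0_g2) and non-ATPase subunit 11 (TRINITY_DN385_c0_g3), which are names for the same lid subunit and come from 1 assembly component, had mean levels of 341 and 64.0, so they may be pieces of 1 transcript or copies.

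**Figure D2:**
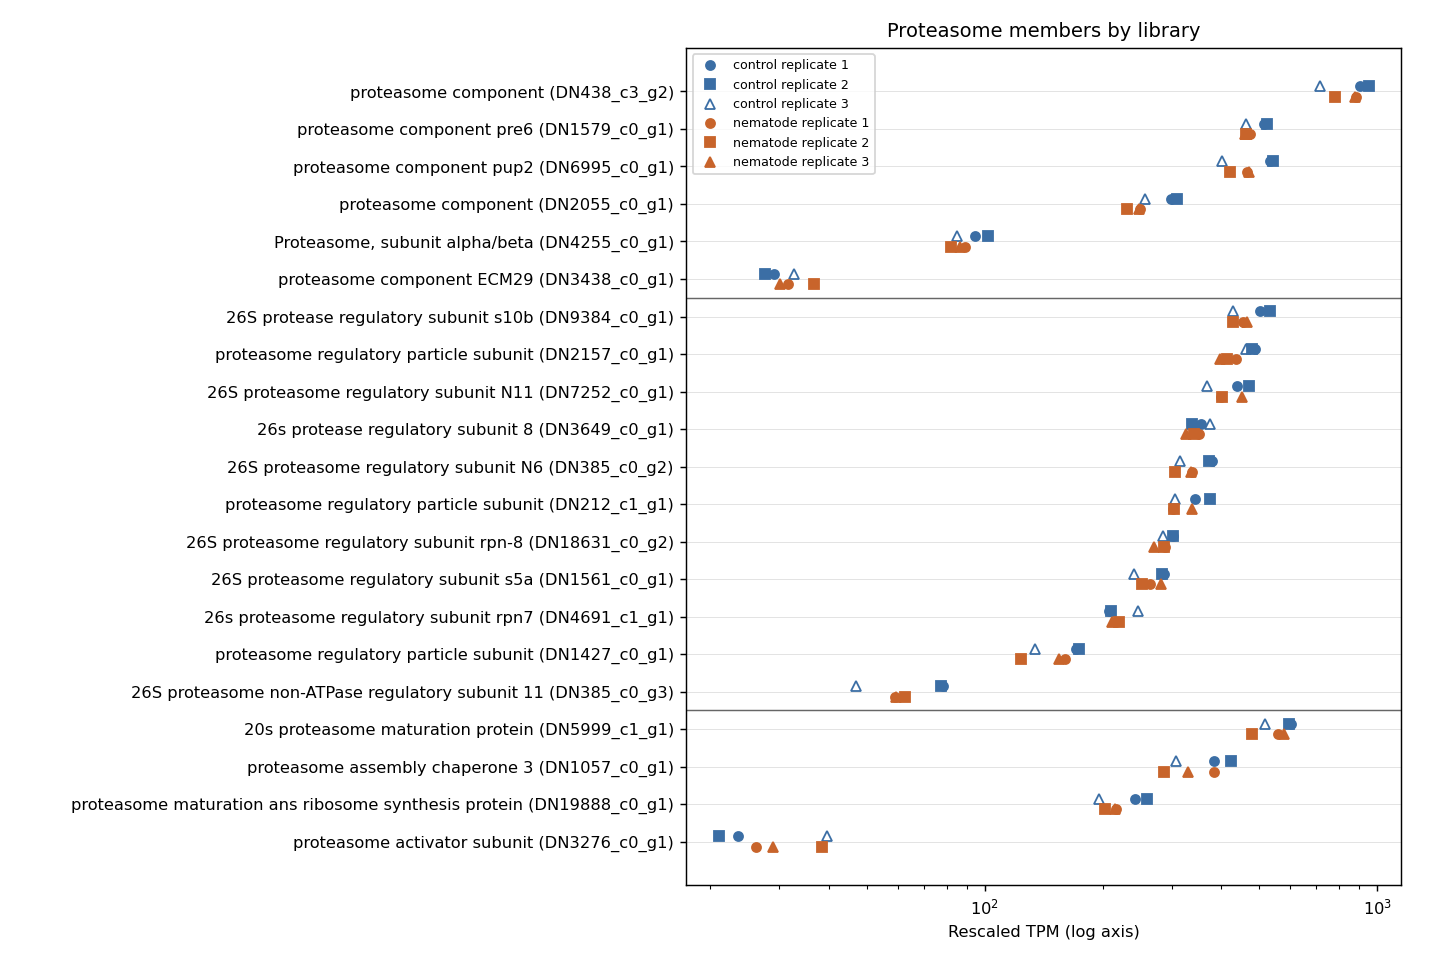
Rescaled TPM (x axis, log scale) of the 21 core, regulatory, assembly and activator features (y axis, 1 row each, names without the TRINITY_ prefix) in each of the 6 libraries; blue marks are controls, orange marks nematode libraries and the open triangle control replicate 3. In 17 rows the open triangle lies left of the other 2 controls. In 8 of these it is within the range of the nematode libraries, in 7 below all of them and in 2 above all of them.

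Proteasome assembly factors and activators had 4 features, 3 below 0 and 1 above, with a median of -0.11 that ran from -0.029 (without nematode replicate 2) to -0.20 (without control replicate 3). The 20S maturation protein (TRINITY_DN5999_c1_g1), which acts while the core is put together, had 601, 597 and 518 rescaled TPM in the controls and 558, 481 and 578 with nematodes. Assembly chaperone 3 (TRINITY_DN1057_c0_g1) had 384, 424 and 306 against 384, 287 and 329.5, and a protein described under proteasome maturation and ribosome synthesis (TRINITY_DN19888_c0_g1) had 242, 258 and 195 against 216, 202 and 215. In all 3 the groups overlapped and control replicate 3 was the lowest control. The activator subunit (TRINITY_DN3276_c0_g1), of a family that opens the core, was lower in level, at 23.5, 21.0 and 39.7 in the controls and 26.1, 38.5 and 28.9 with nematodes. There control replicate 3 and nematode replicate 2 were the high libraries of their groups.

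Apart from the NEDD8 activating enzyme given below, 1 feature was described as an activating enzyme. This ubiquitin-like activating enzyme (TRINITY_DN3181_c0_g1), whose description does not say which modifier it serves, had 215, 222 and 235 rescaled TPM in the controls. With nematodes it had 231, 226 and 217. The groups overlapped fully, and the 95% interval of its log2 fold change was -0.21 to 0.22. Conjugating enzymes had 8 features, 6 below 0 and 2 above, with a median of -0.14. Without control replicate 3 the median was -0.013, with 4 below 0 and 4 above. The highest of them (TRINITY_DN4723_c0_g1) had 425, 401 and 313 in the controls and 342, 330.2 and 342 with nematodes, overlapping only through control replicate 3. The next (TRINITY_DN2064_c0_g2) had 359, 358 and 356 against 324, 345 and 312. Its groups were separate and the controls almost equal, yet its log2 fold change of -0.13 ± 0.09 (SE) had an adjusted p of 0.683. The lowest (TRINITY_DN12552_c0_g1) was listed at 0 in control replicate 2 and nematode replicate 3, and its interval of -1.83 to 1.91 leaves its change unmeasured.

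E3 ligases and ring finger proteins had 17 features, 12 below 0 and 5 above, with a median of -0.11. Without control replicate 3 the sign turned, to a median of 0.072 with 7 below 0 and 10 above. Their summed level was 1735 ± 622 (SD, n = 3) rescaled TPM in the controls and 1437 ± 112 with nematodes. In the controls 3 features of 1 assembly component summed to 268, 238 and 1089 rescaled TPM, with 1 described as HUWE1, a very large ligase that tags many substrates, and 2 as ubiquitin-protein ligases. HUWE1 (TRINITY_DN550_c1_g4) had 142, 137 and 515 in the controls and 154, 214 and 160.4 with nematodes. The second (TRINITY_DN550_c1_g3) had 84.7, 70.3 and 381 against 56.0, 107 and 61.1, and the third (TRINITY_DN550_c1_g1) 41.8, 30.6 and 193 against 27.5, 49.9 and 29.6. Control replicate 3 was high in all 3, and nematode replicate 2 was the highest nematode library in all 3. The log2 fold changes were -0.31 ± 0.50, -0.87 ± 0.63 and -0.86 ± 0.66 (SE), the last 2 being the lowest of all members, and without control replicate 3 they were 0.32, -0.11 and -0.056.

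A ring finger protein (TRINITY_DN4668_c0_g2) was the ligase-group feature with the smallest p. It had 66.0, 67.3 and 87.9 rescaled TPM in the controls and 91.3, 95.5 and 90.4 with nematodes, so every nematode library was above every control. The log2 fold change was 0.33 ± 0.13 (SE; adjusted p = 0.434 in limma). A feature of the same assembly component, the deubiquitinase L5 (TRINITY_DN4668_c0_g1), had 134, 135 and 117 against 156, 126 and 136 with overlapping groups. The second most abundant ligase (TRINITY_DN553_c0_g1) ran from 163 in control replicate 3 to 203, with its nematode libraries between 193 and 196.

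The word cullin matched a cullin-binding protein (TRINITY_DN2022_c1_g5) and a defective-in-cullin-neddylation protein, described with NEDD8 below, and no description in the class was of a cullin itself. The cullin-binding protein had 83.0, 75.9 and 108 rescaled TPM in the controls and 79.1, 86.9 and 71.4 with nematodes, overlapping. F-box proteins, which bring substrates to cullin ligases, had 13 features, 7 below 0 and 6 above, with a median of -0.060 that was 0.0029 without nematode replicate 1. The most abundant (TRINITY_DN19103_c0_g1) had 193, 287 and 734 in the controls and 205, 209.7 and 182 with nematodes. Control replicate 3 was far above the other libraries, and the log2 fold change was -0.79 ± 0.45 (SE) with it and -0.25 without it. The next F-box protein (TRINITY_DN7778_c0_g1) went the other way in that library, at 197, 196 and 132 against 183, 183 and 196. An F-box protein of low level (TRINITY_DN3388_c0_g1) had the highest log2 fold change of all members, 0.37 ± 0.17 (SE; adjusted p = 0.512). Its libraries had 30.01, 32.0 and 22.5 in the controls and 34.8, 32.3 and 42.2 with nematodes, which are separate, though control replicate 2 and nematode replicate 2 nearly touch. 2 further F-box proteins were among the 5 lowest and 5 highest changes, TRINITY_DN4041_c0_g3 at -0.35 ± 0.21 and TRINITY_DN736_c0_g1, which also holds a WD domain, at 0.24 ± 0.14 (log2, SE), and both overlapped between groups.

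The COP9 signalosome, which removes NEDD8 from cullins, had 7 features, 6 below 0 and 1 above, with a median of -0.079 that was -0.14 without nematode replicate 1. Subunit 5 (TRINITY_DN3510_c0_g1), the catalytic subunit, had 327, 345 and 273 rescaled TPM in the controls and 275, 254 and 258 with nematodes. The groups overlapped only because control replicate 3 was just below the highest nematode library, and the log2 fold change was -0.26 ± 0.12 (SE; adjusted p = 0.496). Subunit 7 (TRINITY_DN6376_c1_g1) had 105, 103 and 89.7 against 80.9, 82.8 and 88.9, separate by a small gap, and its change of -0.23 ± 0.10 (log2, SE) had an adjusted p of 0.485. Subunit 6 (TRINITY_DN1047_c0_g1), the noncatalytic partner of subunit 5, stayed between 119 and 121 in all 6 libraries. Its 95% interval of -0.20 to 0.18 was the narrowest of the COP9 features. 2 features were described as subunit 12: TRINITY_DN846_c0_g1, the 1 above 0, had 78.1, 84.1 and 56.3 against 94.0, 86.6 and 81.0, and TRINITY_DN35_c3_g6 had 167, 168 and 126 against 150.2, 142 and 139.8. In both, control replicate 3 was the lowest library.

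In the NEDD8 pathway, a defective-in-cullin-neddylation protein (TRINITY_DN189_c0_g1), which helps attach NEDD8 to cullins, had 385, 417 and 263 rescaled TPM in the controls and 339.5, 279 and 316 with nematodes. The NEDD8 activating enzyme (TRINITY_DN2411_c1_g1) had 189, 210.0 and 151 against 181, 157 and 197. Both overlapped, with control replicate 3 the lowest library. In the SUMO pathway, which attaches a ubiquitin-like modifier, the conjugating enzyme (TRINITY_DN1655_c0_g1) had 162, 194 and 184 against 179, 148 and 138, and SUMO itself (TRINITY_DN6618_c1_g1) had 49.8, 46.5 and 56.3 against 51.1, 50.3 and 47.7. These overlapped as well, and none of the 3 SUMO features or 2 NEDD8 features passed the test. The medians, -0.030 for SUMO and -0.10 for NEDD8, turned above 0 when 1 library was left out, to 0.044 without control replicate 3 and 0.017 without control replicate 2.

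Deubiquitinases had 13 features, 5 below 0 and 8 above, with a median of 0.035. The sign of the median did not hold: it was -0.028 without control replicate 1, -0.070 without control replicate 2 and -0.072 without nematode replicate 2. Their summed level was 735 ± 83.2 (SD, n = 3) rescaled TPM in the controls and 731 ± 27.2 with nematodes, a difference far inside the spread. That sum leaves out the ubiquitin thiolesterase (TRINITY_DN2177_c0_g1), which the wording of its description put with the other ubiquitin features below. The thiolesterase averaged 159 in the controls and 205 with nematodes. A carboxyl-terminal hydrolase of the C19 peptidase family (TRINITY_DN4134_c0_g1) had 35.5, 34.1 and 36.6 in the controls and 41.4, 40.9 and 39.5 with nematodes. Its groups were separate, and its change was 0.19 ± 0.094 (log2, SE) with an adjusted p of 0.532. A further carboxyl-terminal hydrolase (TRINITY_DN20090_c0_g1) had 108, 111 and 143 against 118, 128 and 123, and a ubiquitin hydrolase (TRINITY_DN2401_c0_g1) had 43.7, 44.4 and 118 against 39.6, 49.0 and 36.6. In both control replicate 3 was the highest library, and for the hydrolase the log2 fold change of -0.55 ± 0.38 (SE) became -0.088 without it.

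Features of other ubiquitin descriptions numbered 10, 7 below 0 and 3 above, with a median of -0.18. Without control replicate 3 the median was -0.093, with 5 below 0 and 5 above. The ubiquitin thiolesterase (TRINITY_DN2177_c0_g1), whose name is an older term for a deubiquitinase and which the wording of the role list put here, had the smallest p of all members. It had 164, 166 and 148 rescaled TPM in the controls and 205, 208 and 201 with nematodes. All 3 nematode libraries were above all 3 controls, with a gap wider than the range within either group. The log2 fold change was 0.36 ± 0.091 (SE), with a 95% interval of 0.15 to 0.58 and an adjusted p of 0.198 in limma, so it did not pass the test. A ubiquitin interaction motif protein (TRINITY_DN1182_c0_g1), of a kind that binds ubiquitin, had 119, 117 and 126 in the controls and 108, 95.3 and 90.3 with nematodes, and a change of -0.30 ± 0.10 (log2, SE) with an adjusted p of 0.338. The polyubiquitin-binding protein (TRINITY_DN2847_c0_g1) had 92.4, 97.4 and 91.8 against 78.9, 83.8 and 79.8, and ubiquitin fusion degradation protein 1 (TRINITY_DN4321_c1_g2), a cofactor of the Cdc48 ATPase, had 214, 217 and 202 against 186, 186 and 179.9. In these 3 every nematode library was below every control. The most abundant of the group, a ubiquitin-like modifier (TRINITY_DN724_c0_g2) at 477, 497 and 333 against 407, 347 and 379.9, and ubiquitin related modifier 1 (TRINITY_DN2652_c0_g2), which acts in transfer RNA thiolation in yeast, at 271, 317 and 179 against 236, 199 and 265, overlapped between groups with control replicate 3 lowest.

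Over all roles, 14 of the 96 members had groups that did not overlap, 6 higher and 8 lower with nematodes. That is 6.25% and 8.33% of the members (14.6% in all), beside 10.5% and 7.79% of the class (18.3% in all), so the lower share is near the background and the higher share is below it. Beside those given above, the higher features were a carboxyl-terminal hydrolase (TRINITY_DN857_c0_g1) and an F-box protein (TRINITY_DN16111_c0_g1), and the lower one an SCF ligase subunit (TRINITY_DN2305_c1_g2).

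**Figure D3:**
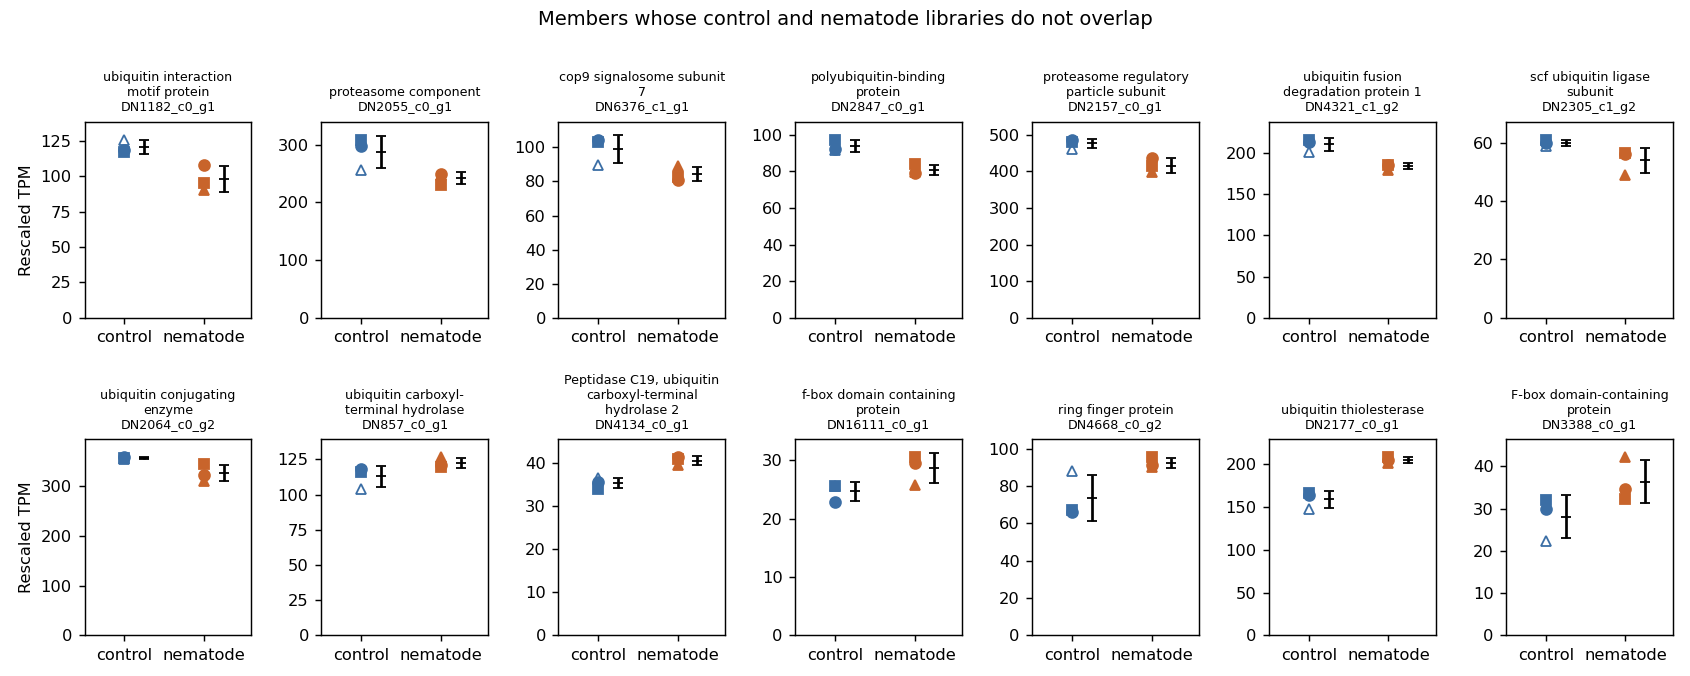
Rescaled TPM (y axis, starting at 0) of the 14 members whose control and nematode libraries (x axis) do not overlap, 1 panel each and names without the TRINITY_ prefix; circles, squares and triangles are replicates 1, 2 and 3, the open triangle is control replicate 3, and bars are mean ± SD of 3 libraries. Gaps are small beside the level in most panels, and the thiolesterase, with the smallest p, has nematode libraries from 201 to 208 above controls from 148 to 166.

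The place of control replicate 3 among the controls differed between role groups, which also differed in level. The median level was 328 rescaled TPM for the core and regulatory features and 70.9 for the E3 features. Role and level cannot be told apart here. In 14 of the 17 core and regulatory features (82.4%) control replicate 3 was the lowest control, beside 44.6% of the class. In 13 of the 17 E3 features it was the highest control, beside 46.4% of the class, and deubiquitinases had it highest in 8 of 13. Over the members its median absolute log2 deviation from the other controls was 0.309, beside 0.359 over the class. The members' median was 0.135 and 0.191 for control replicates 1 and 2 and 0.0806 to 0.130 for the nematode libraries. In control replicate 3, 27 of 96 members (28.1%) deviated by more than 0.5, of which 19 were above and 8 below. The class share was 34.3%, so the members' share was below it. These counts describe 1 library, and its part in the group comparison is given by the values without it.

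**Figure D4:**
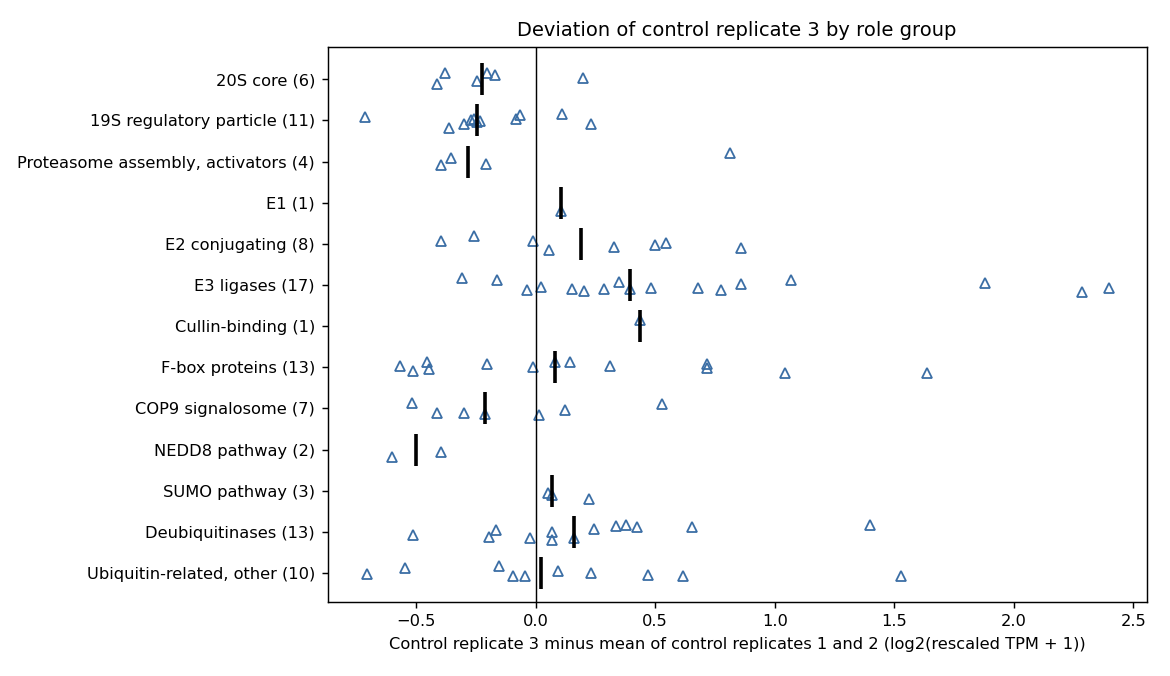
Level of each member in control replicate 3 minus the mean of control replicates 1 and 2 (x axis, log2(rescaled TPM + 1)) by role group (y axis, number of members in brackets); triangles are members and thick bars group medians. Core, regulatory and assembly features lie mostly left of 0 and E3 ligases mostly right of it.

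In 8 members (8.33%) control replicate 3 was at least 2-fold above the mean of the other controls, beside 6.61% of the class, and the lowest such ratio of a member was 0.570. The folds ran from 2.09 for GRR1 (TRINITY_DN6463_c0_g1), an F-box protein that acts in nutrient sensing in yeast, to 5.34 for the ligase feature TRINITY_DN550_c1_g1. Beside the 3 features of the HUWE1 component, the F-box protein and the hydrolase given above, they held a ubiquitin supergroup feature (TRINITY_DN2422_c0_g1) at 47.1, 57.8 and 153 in the controls and a ring finger domain protein (TRINITY_DN3058_c0_g1) at 53.8, 52.9 and 113. These 8 were picked for this deviation, so their folds are a description. In all 8, nematode replicate 2 was the highest nematode library. This was not particular to them. Deviations of control replicate 3 and nematode replicate 2 from their group means had the same sign in 81 of the 96 members (correlation 0.69). They had the same sign in 3376 of the 4568 class features (correlation 0.41).

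**Figure D5:**
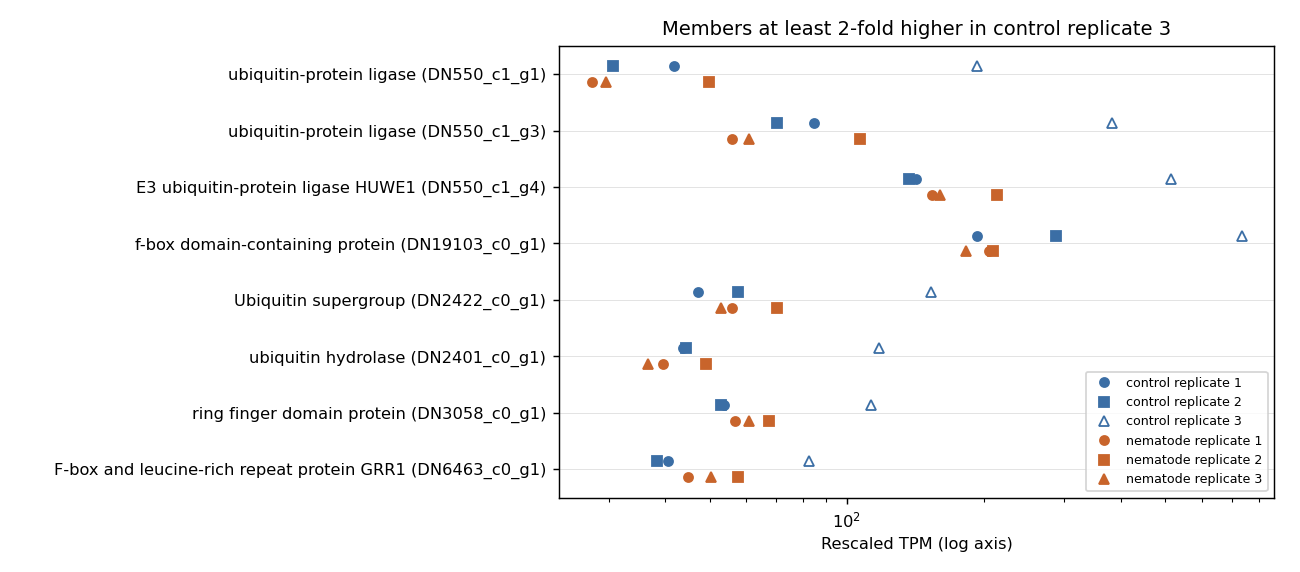
Rescaled TPM (x axis, log scale) of the 8 members at least 2-fold higher in control replicate 3 than the mean of control replicates 1 and 2 (y axis, 1 row each, names without the TRINITY_ prefix); blue marks are controls, the open triangle is control replicate 3 and orange marks are nematode libraries. The open triangle is the rightmost mark in every row, and nematode replicate 2, the orange square, is the rightmost orange mark.

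Without control replicate 3, 9 members passed the test, 2 higher and 7 lower with nematodes, beside 7.4% of 4551 class features called higher and 6.83% called lower. At 2.08% and 7.29% of the members, the higher share is below the background and the lower share near it. The higher features were the ring finger protein TRINITY_DN4668_c0_g2, at a log2 fold change of 0.46 (adjusted p = 0.0163), and the thiolesterase TRINITY_DN2177_c0_g1 at 0.31 (adjusted p = 0.0322). The lower features were COP9 subunit 5, COP9 subunit 7, proteasome non-ATPase subunit 11, the proteasome component TRINITY_DN2055_c0_g1, the conjugating enzyme TRINITY_DN4723_c0_g1, the ubiquitin-like modifier TRINITY_DN724_c0_g2 and an F-box and WD protein (TRINITY_DN1471_c0_g1). Their log2 fold changes lay between -0.38 and -0.29. The median over all members was then -0.058.

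Other genes of protein breakdown, taken from the same class by keyword, did not pass the test either, with 0 called in each list in limma and 1 in all at an unadjusted p under 0.05. The 6 features of Cdc48 and ER-associated degradation, which pull ubiquitinated proteins from complexes and membranes, had 3 above and 3 below 0 and a median of -0.071, which was 0.019 without control replicate 3. Cdc48 itself (TRINITY_DN917_c1_g1) had 196, 198 and 510.2 rescaled TPM in the controls and 189, 249 and 202 with nematodes, again high in control replicate 3. Autophagy, the other route of bulk breakdown, had 11 features. Among them TRINITY_DN7520_c0_g2, g3, g5 and g6 came from 1 assembly component and had at most 7.86 rescaled TPM in any library. They may be pieces of 1 transcript, and their log2 fold changes of -0.56, 0.80, -0.59 and -0.90 are poorly measured. Of the 11 features, 3 lay above and 8 below 0, with a median of -0.32. Without control replicate 3 the sign turned, to a median of 0.053 over the 9 features then tested, with 6 above and 3 below. Control replicate 3 exceeded the other controls there by a median of 1.14 on the log2 scale. The anaphase-promoting complex, a ligase of the cell cycle, had 4 features with a median of -0.037, which was -0.11 without control replicate 3. Endosomal sorting had 10 features, 5 above and 5 below 0, with a median of 0.013, and arrestin adaptors of membrane protein ubiquitination had 3 with a median of 0.084. Without control replicate 3 these were 0.037 and 0.26, and 1 endosomal sorting feature was called lower. No feature matched the words for vacuolar proteases.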

How the data were processed

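The authors deposited 1 table of TPM with a column per library and a best-hit description, and feature names of the Trinity form, per the file headers. Aligner, quantifier, versions and genome build: not given in the sources used here. Depth and strand setting are unknown. The titles gave the groups of 3 and 3. The 2 columns of group means were not used. From these TPM values the Ophiostomatales-hit rows (4613) were taken, each library was divided by its median ratio over the 4505 rows above 0 in all 6 libraries, and class totals were set to average 1e+06. R 4.3.3 with limma 3.58.1 (lmFit, eBayes with a mean-variance trend) was run on log2(rescaled TPM + 1) for the 4568 rows with at least 1 rescaled TPM in at least 3 libraries. Nematode was compared with control without covariates, with Benjamini-Hochberg adjustment over all of them and a threshold of 0.05. All p-values come from this test. With 3 against 3, the smallest two-sided p of an exact permutation is 0.1.

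Members and lists were chosen with earlier results of these data known, and no list was tested as a set. Roles were assigned by description words. Named features were, in each role, the 2 of highest level and the 1 of smallest p, plus the 5 largest changes each way among those of at least 10 rescaled TPM in the higher group, and core and regulatory subunits. Features named for separate groups, for their level in control replicate 3 or for passing without it were chosen after their values were seen. The fit was checked on simulated data in which the noise of a feature was the same in every library. No simulated library stood apart as control replicate 3 does, so the check does not cover its effect. Alternatives were TPM as deposited, TMM (trims of 30% and 5%), quantile normalization, a pseudocount of 0.1 or 5, no filter or a filter of 5, a replicate block, eBayes made robust (statmod 1.5.0) or without a trend, each library left out, and, added after seeing the data, sample quality weights.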

Additional observations from a re-analysis of the deposited data

Results flagged for a closer look

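The same words matched 78 features whose best hit lay outside Ophiostomatales, which no comparison above uses. Of these, 53 had at least 1 TPM in every nematode library and under 1 TPM in every control library. That is 67.9% of them, near the 65.9% of all 8847 described features outside Ophiostomatales with the same pattern, so the share is that of the background. Their summed TPM as deposited was 0.47, 0.38 and 0.33 in the controls and 3735, 2864 and 2891 with nematodes. They covered most roles, with 12 E3 ligases, 6 core subunits, 6 conjugating enzymes, 5 regulatory particle subunits, 5 deubiquitinases, 3 activating enzymes and 3 cullins. The organism they came from was not tested.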

How the results depend on the processing

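On TPM as deposited, with all features tested together, 83 members were lower with nematodes and 0 higher, at a median log2 fold change of -0.90, beside 78.8% of the class called lower and a class median of -0.82. That scale holds the class's fall in share of TPM. On it 11 named members turned from above to below 0, of which 7 passed the threshold: TRINITY_DN3181_c0_g1 (-0.82), TRINITY_DN553_c0_g1 (-0.79), TRINITY_DN7778_c0_g1 (-0.71), TRINITY_DN846_c0_g1 (-0.54), TRINITY_DN4668_c0_g1 (-0.71), TRINITY_DN20090_c0_g1 (-0.78) and TRINITY_DN4134_c0_g1 (-0.60). The 4 that turned without passing were TRINITY_DN2177_c0_g1 (-0.46), TRINITY_DN3388_c0_g1 (-0.43), TRINITY_DN4668_c0_g2 (-0.49) and TRINITY_DN736_c0_g1 (-0.56). Quantile normalization moved the members' median to -0.037 and called 0, and it turned TRINITY_DN438_c3_g2 (0.12), TRINITY_DN5999_c1_g1 (0.017) and TRINITY_DN2411_c1_g1 (0.030) above 0. Sample quality weights (gene by gene, since the REML estimate did not converge) gave control replicate 3 a weight of 0.114, against 0.787 to 3.20, and called 2 members higher and 12 lower, beside 19.9% of the class. They turned the sign of TRINITY_DN550_c1_g4 (0.23), TRINITY_DN553_c0_g1 (-0.055), TRINITY_DN7778_c0_g1 (-0.054) and TRINITY_DN6618_c1_g1 (0.026). With each library left out in turn, 0 to 2 members were called higher and 0 to 7 lower, with a median from -0.10 to -0.058; calls appeared only without control replicate 3, with 2 and 7. Leaving out 1 library also turned the sign of 9 named members that did not pass, whose ranges were -0.13 to 0.076 for TRINITY_DN438_c3_g2, -0.026 to 0.040 for TRINITY_DN3181_c0_g1, -0.63 to 0.32 for TRINITY_DN550_c1_g4, -0.061 to 0.096 for TRINITY_DN553_c0_g1, -0.071 to 0.22 for TRINITY_DN7778_c0_g1, -0.16 to 0.071 for TRINITY_DN2411_c1_g1, -0.091 to 0.044 for TRINITY_DN6618_c1_g1, -0.035 to 0.16 for TRINITY_DN20090_c0_g1 and -0.34 to 0.073 for TRINITY_DN2652_c0_g2. The cause of these turns was not tested. TMM, both pseudocounts, both filters, robust eBayes and eBayes without a trend left 0 calls. Whether the replicate numbers pair the libraries is not described. The deviations of libraries with the same number correlated across the class at 0.15, -0.43 and -0.28, and over the members at 0.61, -0.84 and -0.31. These values cannot settle it, since deviations within a group depend on each other and control replicate 3 stood apart. The fit with a replicate block called 0 members each way at a median of -0.084. With 3 libraries a group and the depth unknown, small changes of low features cannot be measured.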

Other observations

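A further 8 features of these names had best hits outside Ophiostomatales and at least 1 TPM in all 6 libraries. They included polyubiquitin (TRINITY_DN1720_c0_g3), the precursor of ubiquitin itself, at 4575, 4948 and 5176 TPM as deposited in the controls and 2100, 2713 and 2885 with nematodes. Divided by the class factors, its level was 6843, 7678 and 7735 in the controls and 7179, 6224 and 7262 with nematodes, which overlap. It was thus more abundant than any of the 96 members. The core subunit PRE3 (TRINITY_DN1493_c0_g1), a catalytic subunit, had 622, 624 and 459 on that scale in the controls and 524, 446 and 515 with nematodes. The regulatory ATPase subunit 4 (TRINITY_DN443_c1_g1) had 519.8, 563 and 563 in the controls and 515, 456 and 475 with nematodes, separate by a small gap. Over the 7 of these 8 features with at least 10 TPM in all libraries, the ratio of the group means on that scale lay between 0.774 and 1.09. The lowest ratio was that of COP9 subunit 1 (TRINITY_DN701_c0_g1), where control replicate 3 was high. It had 216, 215 and 372 on that scale in the controls and 221, 212 and 187 with nematodes. The 8 features were not in the fit and were not tested.

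Another 11 features outside Ophiostomatales were under 1 TPM in every nematode library. Their summed TPM was 62.9, 26.3 and 1.12 in control replicates 1, 2 and 3, so their sum was lowest in the control library that stood apart.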
